A study of Mus musculus with 6 samples.

Results

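Il2, Il6, Il10, Lif and Osm encode secreted cytokines: interleukin-2, interleukin-6, interleukin-10, leukemia inhibitory factor and oncostatin M. They were taken by symbol from the deposited expression table, as 5 of its 23268 genes. The libraries came from group 2 innate lymphoid cells (ILC2s), lymphocytes known for type 2 cytokines, sorted from the colon. The mice were C57BL/6, 6 to 8 weeks old. For 6 days they received either plain water (control, 3 libraries) or 3% dextran sulfate sodium (DSS, 3 libraries), a chemical that injures the colonic epithelium. No source used here says how many animals stand behind a library, and each p-value reflects only how these libraries spread, which may be technical. Levels are FPKM, fragment counts divided by the length of the gene and the depth of the library, as mean ± SD with n = 3 libraries. A log2 change is the DSS mean of log2(FPKM + 1) less the control mean, and the added 1 shrinks changes of weakly expressed genes.

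IL-2 is a growth factor for lymphocytes and acts through Il2ra, Il2rb and the common gamma chain Il2rg. IL-6, LIF and oncostatin M belong to the IL-6 family, whose receptors share the signalling chain gp130, encoded by Il6st, and act largely through the transcription factor STAT3. IL-10 restrains inflammation in the gut through Il10ra and Il10rb, also with STAT3. ILC2s that make IL-10 have been described in the intestine.

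All 5 transcripts were detected in all 6 libraries, and all 5 had a mean FPKM of at least 1, the minimum for the test. The order of levels in control libraries was Il2, Lif, Osm, Il6 and Il10. Il2 and Lif ranges overlapped among the control libraries, whereas Osm lay below both, Il6 below Osm and Il10 below Il6 in every control library. By mean level Il2 ranked 833, Lif 874, Osm 1054, Il6 4212 and Il10 9010 among all genes. None of the 5 differed between DSS and control at a limma adjusted p under 0.05 (0 of 5, against 0.222% of the 12187 genes tested). At an unadjusted p under 0.05 the count was also 0 of 5, against 8.99% of all genes. With limma voom on recovered fragment counts it was again 0 of 5, both adjusted (against 0.148% of all genes) and unadjusted (against 9.71%). In bulk samples, fewer cells that make a transcript and less RNA per cell cannot be told apart.

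**Figure D1:**
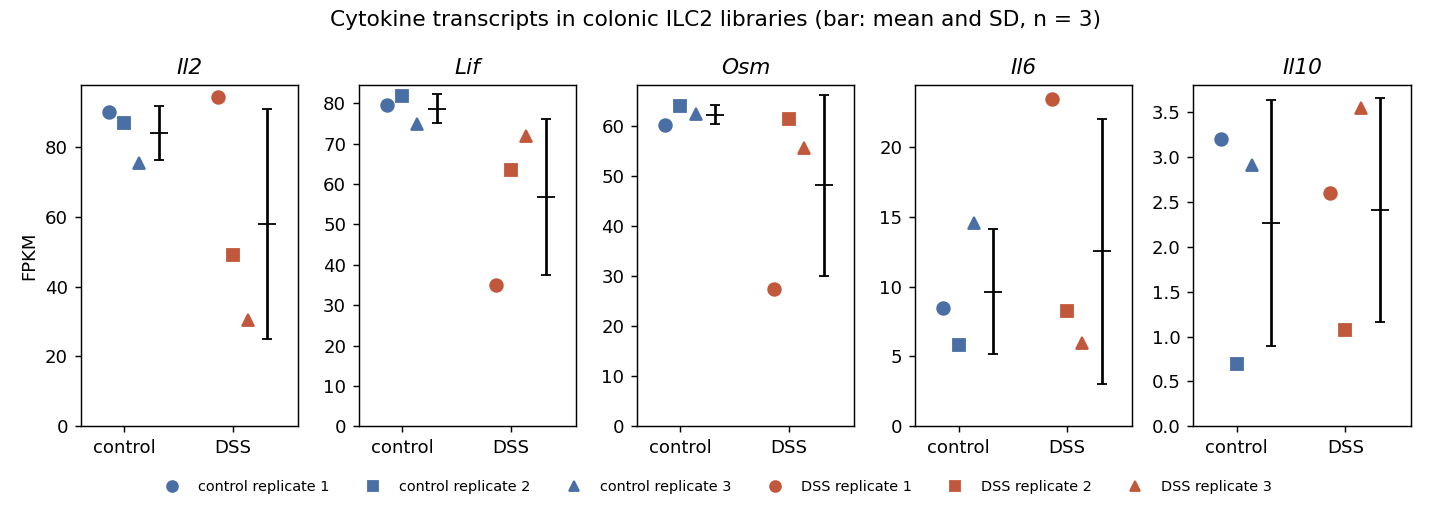
FPKM of each cytokine transcript in each library, on a linear axis from 0, with one marker per library and a bar for the mean and SD of the 3 libraries of a group. Lif is the only one of the 5 whose 3 DSS libraries all lie under the 3 control libraries, and DSS replicate 1 is the highest library for Il2 and Il6 and the lowest for Lif and Osm.

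Short-lived cytokine messages carry AU-rich elements, repeats of the pentamer ATTTA in the 3′ untranslated region that recruit mRNA decay factors. The stretches below are shown because the pentamer occurs repeatedly in that region of all 5 transcripts, although the Il10 stretch itself holds only 1. Each is the 30-base window of the longest annotated 3′ untranslated region (GENCODE M21, GRCm38, strand of the gene, 5′ to 3′) chosen for its ATTTA pentamers, which are in capitals.
Il2: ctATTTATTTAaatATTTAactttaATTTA
Il6: atttttaATTTAttgataATTTAaataagt
Il10: ctctctccgaaatATTTAttacctctgata
Lif: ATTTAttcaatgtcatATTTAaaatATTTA
Osm: ttttatATTTAtaaggcctATTTAtaatgt
The Il2 region of 581 bases held 7 pentamers, or 12.05 per kilobase, a density above that of 99.6% of the 19925 genes with such a region of at least 100 bases. Il10 had 6 in 706 bases (8.5 per kilobase, above 98.5% of genes). Il6 had 10 in 1668 bases (6.0 per kilobase, above 95.4%), and Osm 6 in 1017 bases (5.9 per kilobase, above 95.2%). Lif had 7 in 3180 bases (2.2 per kilobase, above 66.3%), closer to the median of all genes, 1.35 per kilobase. The longer form TTATTTATT occurred 1 time in Il2 and 2 times in Lif, and 8.1% of genes held it. These matches describe the letters and are no measure of decay.

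Il2, the lymphocyte growth factor gene, was at 90.0, 86.7 and 75.2 FPKM in control replicates 1, 2 and 3, and at 94.3, 49.1 and 30.4 in DSS replicates 1, 2 and 3. DSS replicate 1 was the highest of the 6 libraries, and the other 2 DSS libraries were below every control, so the groups overlapped. The mean was 84.0 ± 7.73 in control and 57.9 ± 32.9 in DSS. The log2 change was −0.67 ± 0.35 SE (95% interval −1.46 to 0.11, limma adjusted p = 0.644), and the two-sided exact permutation p was 0.4, where 0.1 is the smallest that 3 against 3 libraries allow. Without DSS replicate 1 the log2 change was −1.10 ± 0.19 SE (limma adjusted p = 0.0112), and 2.31% of all genes were then called lower. Without DSS replicate 3 it was −0.29. Counting error was small beside this spread, since 351 to 2406 fragments lay behind the values. Il2 lies on the minus strand of chromosome 3 (mm10, 37120523 to 37125959) and overlaps Adad1 on the other strand, from which unstranded libraries cannot separate it. Adad1 itself was at 0 to 0.734 FPKM.

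Lif, a regulator of stem cells and of epithelial and neural repair, was at 79.5, 81.8 and 74.8 FPKM in control and at 35.0, 63.4 and 71.8 in DSS replicates 1, 2 and 3. Every DSS library was below every control library. This held for 1 of the 5 cytokines and for 9.6% of all genes tested, while 6.35% of genes had every DSS library above. The mean was 78.7 ± 3.53 in control and 56.8 ± 19.3 in DSS. The log2 change of −0.53 ± 0.27 SE did not pass (95% interval −1.13 to 0.08, limma adjusted p = 0.639, exact permutation p = 0.1, the smallest possible). Without DSS replicate 1 the log2 change was −0.22.

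Osm, which acts on stromal and epithelial cells and is known as a mediator of intestinal inflammation, had control values of 60.4, 64.1 and 62.6 FPKM. In DSS replicates 1, 2 and 3 it was at 27.6, 61.5 and 55.7. DSS replicate 1 was far below the rest, replicate 3 was below every control, and replicate 2 lay within the control range. The mean was 62.3 ± 1.88 in control and 48.2 ± 18.1 in DSS (log2 change −0.44 ± 0.29 SE, 95% interval −1.09 to 0.21, limma adjusted p = 0.739, exact permutation p = 0.2). Without DSS replicate 1 it was −0.09.

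Lif and Osm are neighbours on the plus strand of chromosome 11 (mm10), Osm at 4236420 to 4241026 and Lif at 4257557 to 4272514, 16.5 kb apart. The ratio of their levels within a library, Lif over Osm, was 1.32, 1.28 and 1.20 in control and 1.27, 1.03 and 1.29 in DSS, so Lif was the higher of the pair in 6 of 6 libraries. The ratio did not differ between the groups beyond its spread (1.26 ± 0.0618 against 1.20 ± 0.144, exact permutation p = 0.6). Il2 over Lif was far less even, at 1.13, 1.06 and 1.01 in control and 2.69, 0.774 and 0.423 in DSS (exact permutation p = 0.8).

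Il6, the acute-phase cytokine gene, was at 8.45, 5.85 and 14.6 FPKM in control and at 23.4, 8.22 and 5.96 in DSS. The highest library was DSS replicate 1 and the lowest control replicate 2, and DSS replicates 2 and 3 lay between control replicates 2 and 1. The mean was 9.62 ± 4.48 in control and 12.5 ± 9.50 in DSS (log2 change 0.21 ± 0.46 SE, 95% interval −0.82 to 1.24, limma adjusted p = 0.929, exact permutation p = 0.8). The direction turned without DSS replicate 1 (−0.32) and without control replicate 2 (−0.06). Il6 lies on the plus strand of chromosome 5 (mm10, 30013114 to 30019981).

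Il10, the anti-inflammatory member, was the weakest of the 5, at 3.20, 0.689 and 2.92 FPKM in control and 2.60, 1.07 and 3.55 in DSS. Control replicate 2 and DSS replicate 2 were the lowest library of their groups, and the groups overlapped throughout. Behind these values lay 98, 16 and 49 fragments in control and 51, 27 and 47 in DSS, so counting alone gives a coefficient of variation of 10.1% to 25.0% per library. The log2 change was 0.10 ± 0.46 SE (95% interval −0.94 to 1.13, limma adjusted p = 0.973, exact permutation p = 0.8). Its sign turned without control replicate 2 (−0.32) and without DSS replicate 3 (−0.15). Even so, Il10 was above 52.7% to 66.7% of all genes in each library. In DSS replicate 3, where its FPKM was highest, that share was 58.1%. Il10 lies on the plus strand of chromosome 1 (mm10, 131019845 to 131024974).

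**Figure D2:**
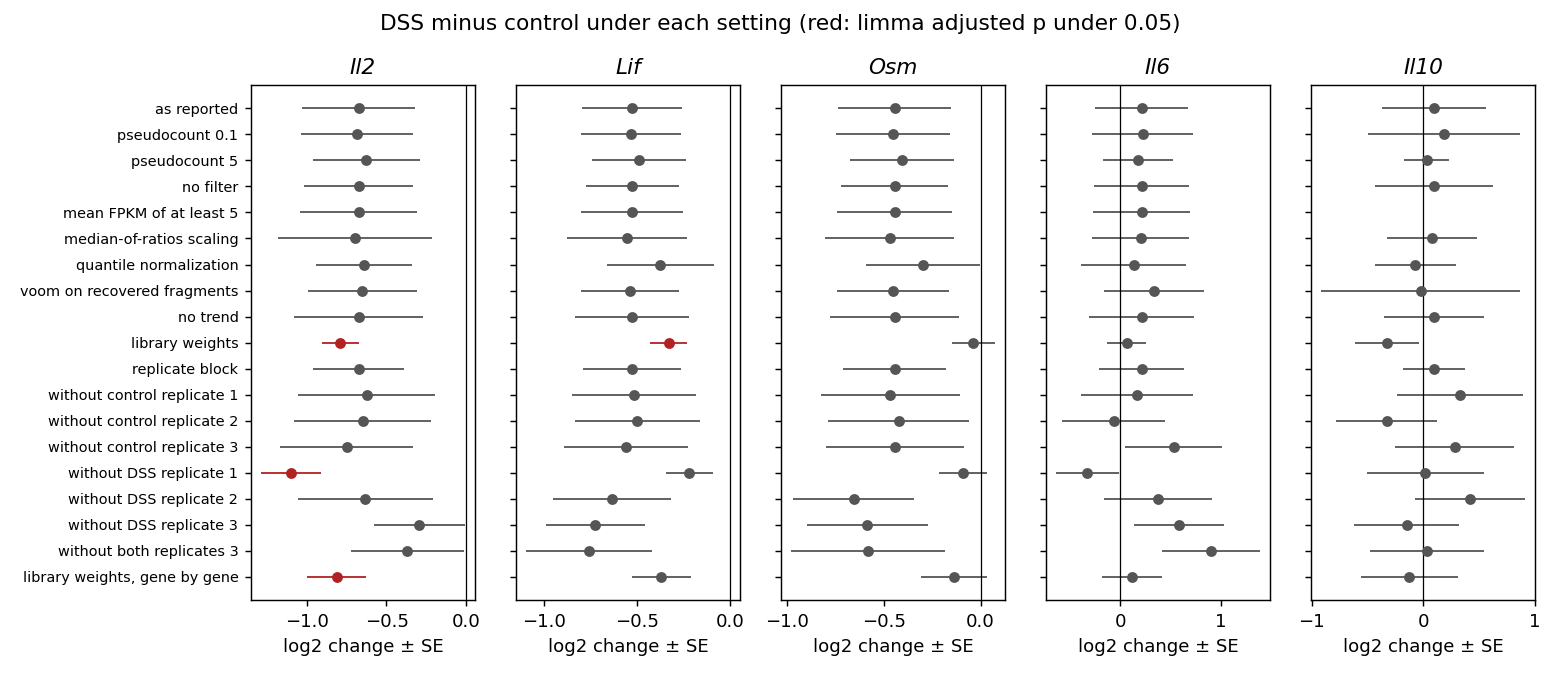
Log2 change (DSS minus control) of each cytokine with its SE under every processing setting, with red marking a limma adjusted p under 0.05. Il2, Lif and Osm stay left of 0 under each setting shown, whereas Il6 and Il10 lie on both sides of it.

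DSS replicate 1 was the highest or the lowest of the 6 libraries in 4 of the 5 cytokines (Il2, Il6, Lif and Osm), and in 56% of all genes tested. DSS replicate 3 was an extreme in nearly as many genes (53.8%). It was the lowest library for Il2 and the highest for Il10. In DSS replicate 1 the level relative to the control mean moved with gene length. The median log2 difference was 0.50 over 1348 genes under 1 kb, 0.17 over 2404 genes of 1 to 2 kb, −0.24 over 2481 genes of 2 to 3 kb and −0.34 over 3691 genes of 3 to 5 kb. DSS replicate 3 was at 0.71 for the shortest class and 0.11 to 0.32 for the others, and DSS replicate 2 lay between −0.07 and 0.00. The gene lengths implied by the FPKM values were 1158 bp for Il2, 1325 for Il10, 2299 for Osm, 2371 for Il6 and 4074 for Lif. In DSS replicate 1 the log2 difference from the control mean was 0.17 for Il2, 1.28 for Il6, 0.25 for Il10, −1.15 for Osm and −1.14 for Lif. The part of length in the results was not tested.

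**Figure D3:**
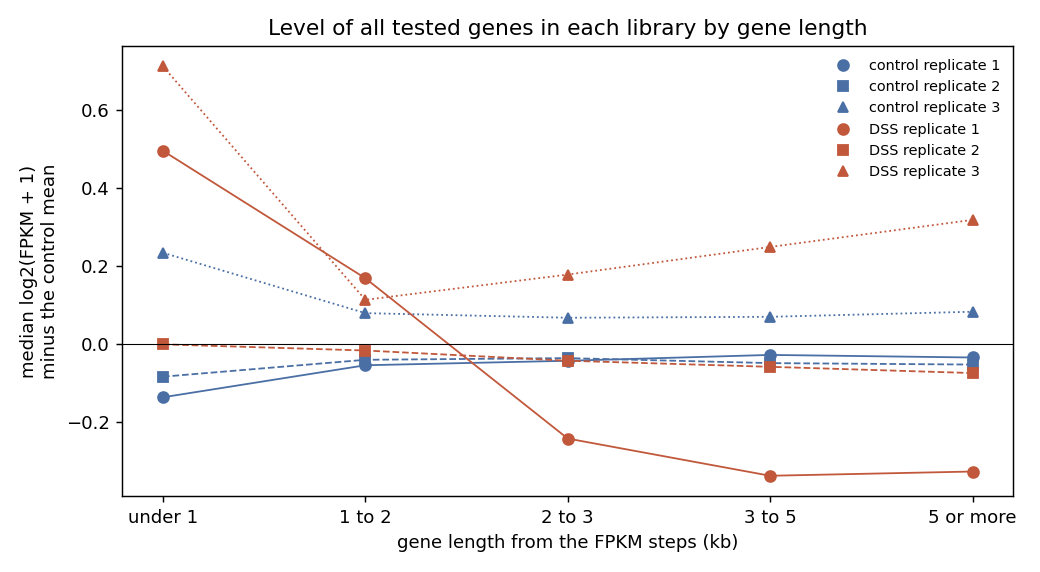
Median log2(FPKM + 1) minus the control mean, over all genes tested, by class of gene length in kb, with one line per library. The line of DSS replicate 1 drops from 0.50 in the shortest class to −0.33 in the longest, and DSS replicate 3 is above 0 in every class.

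Of 82 other genes of these pathways, taken from lists of ligands, receptors, signal carriers and regulators, 65 were tested and 1 passed, Irf4, which is 1.54% of them against 0.222% of all genes. Every DSS library was below every control for 19 of the 65 (29.2%, against 9.6% of all genes), and above for 3 (4.62%, against 6.35%). The median log2 change over the 65 was −0.25, and over all genes 0.03. Without DSS replicate 1, 15 of the 65 passed, 12 lower and 3 higher, against 3.39% of all genes.

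The 3 receptor chains for IL-2 had every DSS library below every control (3 of 3, against 9.6% of all genes), and none of them passed. Il2ra, the high-affinity chain, was at 110.1, 107.8 and 109.9 FPKM in control and at 61.4, 69.8 and 69.1 in DSS (log2 change −0.70 ± 0.18 SE, limma adjusted p = 0.196). Without DSS replicate 1 its limma adjusted p was 0.0139, when 2.31% of all genes were called lower. Leaving out any other 1 library gave a limma adjusted p of 0.169 to 0.805. Il2rb, the signalling chain shared with IL-15, had a mean of 211 ± 19.2 in control and 118 ± 51.4 in DSS (limma adjusted p = 0.393). Il2rg was at 824 ± 26.7 and 628 ± 91.6 (limma adjusted p = 0.646). Il10ra, the ligand-binding chain of the IL-10 receptor, was at 85.5, 78.1 and 74.8 FPKM in control. In DSS it was at 23.3, 48.0 and 52.6, again without overlap (log2 change −1.01 ± 0.30 SE, limma adjusted p = 0.267). Its limma adjusted p was 0.0224 without DSS replicate 1, and 0.131 to 0.907 without any other 1 library. Il10rb, shared with IL-22, was at 14.7 ± 0.776 and 13.3 ± 3.38 (limma adjusted p = 0.892).

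Receptors of the IL-6 family were low in both groups. Il6st was at 2.36 ± 0.270 FPKM in control and 2.88 ± 1.45 in DSS (limma adjusted p = 0.933), and Il6ra at 3.35 ± 0.463 and 2.70 ± 0.676 (limma adjusted p = 0.866). Lifr, the LIF receptor chain, and Osmr, the oncostatin M receptor chain, were under the minimum for the test, at 0.460 ± 0.449 and 0.460 ± 0.364 in control. In DSS they were at 0.819 ± 0.940 and 0.805 ± 0.695. Il27ra, the IL-27 receptor, was the exception in level, at 65.1 ± 5.79 and 46.1 ± 21.9 (limma adjusted p = 0.682). Of these 8 receptor genes 4 were tested and none passed.

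**Figure D4:**
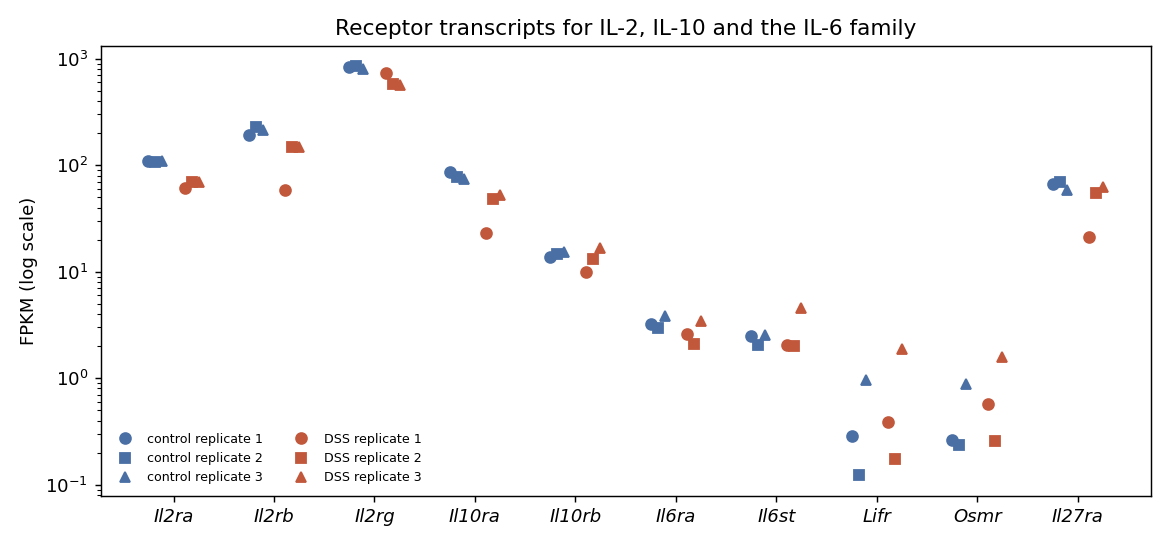
FPKM of receptor transcripts for IL-2, IL-10 and the IL-6 family in each library, on a log axis, with one marker per library. The DSS libraries lie under the control libraries for Il2ra, Il2rb, Il2rg and Il10ra, and Lifr and Osmr sit lowest.

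Other ligands of the 3 families gave no call. Among the IL-6 family, 3 of 9 were tested, and Ebi3, the shared chain of IL-27 and IL-35, was at 17.9 ± 1.59 FPKM in control and 21.2 ± 3.15 in DSS (limma adjusted p = 0.826). Among the IL-10 family, 2 of 6 were tested. Il22, which protects the epithelium and marks type 3 cells, was at 113.9, 192.1 and 218.8 in control and at 261.9, 133.4 and 48.7 in DSS, an overlap (limma adjusted p = 0.854). Among the relatives of IL-2, 3 of 5 were tested. Il9, an ILC2 product, was at 9.10, 8.42 and 8.29 FPKM in control and at 2.24, 0 and 1.11 in DSS (log2 change −2.34 ± 0.41 SE, limma adjusted p = 0.0763). Il15, a growth factor for lymphocytes, had higher values in DSS, at 4.23 ± 0.786 and 7.17 ± 2.13 (log2 change 0.62 ± 0.27 SE, limma adjusted p = 0.547). Il9 passed with the replicate block (limma adjusted p = 0.0479), with a pseudocount of 5, with library weights, with gene-by-gene weights and without DSS replicate 1. Its DSS values rested on 18, 0 and 6 fragments.

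None of 11 JAK and STAT genes passed, 8 with lower and 3 with higher values. Jak2, a kinase bound to gp130, was at 103 ± 5.38 FPKM in control and 62.9 ± 2.42 in DSS (log2 change −0.70 ± 0.18 SE, limma adjusted p = 0.196). Stat3, the main carrier of IL-6 and IL-10 signals, was at 77.9, 75.4 and 76.0 in control and 25.7, 63.3 and 68.2 in DSS (limma adjusted p = 0.636). Of 8 feedback and target genes none passed. Socs2, a feedback inhibitor that STAT5 induces, was at 331 ± 33.4 and 198 ± 20.9 without overlap (limma adjusted p = 0.218). Socs3, the STAT3-induced inhibitor of gp130, was at 8.40, 6.85 and 9.16 in control and 1.41, 11.4 and 10.7 in DSS.

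The 9 transcription factors known to act on Il10 all had a negative log2 change, with a median of −0.66 against 0.03 over all genes. In 6 of them every DSS library was below every control (against 9.6% of all genes), and 1 passed (against 0.148% of all genes called lower). Maf (−0.27 ± 0.27 SE), Batf (−0.17 ± 0.26 SE) and Etv5 (−0.31 ± 0.47 SE) overlapped between the groups. Batf was highest of the 6 libraries in DSS replicate 1 (269 FPKM), and Etv5 in DSS replicate 3 (2.86 FPKM). Irf4, a factor of activated lymphocytes, fell from 24.4, 20.1 and 20.8 FPKM in control to 5.40, 6.91 and 6.15 in DSS (log2 change −1.67 ± 0.21 SE, limma adjusted p = 0.0212). All 3 DSS values lay far under the controls. Leaving out any 1 control library, or DSS replicate 2, ended this call, with limma adjusted p up to 0.277 and the log2 change between −1.75 and −1.59. Nfil3, a factor for innate lymphoid development, was at 255 ± 3.46 and 114 ± 19.3 (limma adjusted p = 0.0743). Bhlhe40, a repressor of Il10, was at 1720 ± 132 and 928 ± 315 (limma adjusted p = 0.304).

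The 10 factors known to act on Il2 gave no call, 6 with lower and 4 with higher values. Rel, the NF-kB subunit c-Rel, was at 36.3 ± 4.68 FPKM in control and 19.6 ± 2.49 in DSS (log2 change −0.86 ± 0.21 SE, limma adjusted p = 0.161). Nfatc1, an NFAT family member, was at 37.4 ± 2.04 and 22.2 ± 9.65 (limma adjusted p = 0.444). Jun, a subunit of AP-1, was at 762 ± 42.7 and 1335 ± 491 (limma adjusted p = 0.497). Of 11 decay factors of cytokine transcripts 10 were tested and none passed. Zfp36, which binds AU-rich elements, was at 1941 ± 229 and 1943 ± 412, and Zc3h12a, the nuclease Regnase-1, at 76.0 ± 6.94 and 50.0 ± 22.9 (limma adjusted p = 0.582).

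Promoter sequences from RefSeq (GRCm38.p6) matched for 3 of the 5 genes and are shown because AP-1, NF-kB and NFAT are known to act on cytokine promoters. Each is the 250 bases before the start site, on the strand of the gene, with motif matches in capitals. They cover chr3:37125955-37126204 (minus strand) for Il2, chr5:30012864-30013113 (plus) for Il6 and chr11:4257318-4257567 (plus) for Lif.
Il2: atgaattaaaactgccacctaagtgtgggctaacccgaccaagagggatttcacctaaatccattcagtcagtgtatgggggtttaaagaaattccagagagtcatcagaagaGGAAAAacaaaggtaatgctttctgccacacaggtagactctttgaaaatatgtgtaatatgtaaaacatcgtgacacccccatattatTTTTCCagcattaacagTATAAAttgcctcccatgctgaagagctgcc
Il6: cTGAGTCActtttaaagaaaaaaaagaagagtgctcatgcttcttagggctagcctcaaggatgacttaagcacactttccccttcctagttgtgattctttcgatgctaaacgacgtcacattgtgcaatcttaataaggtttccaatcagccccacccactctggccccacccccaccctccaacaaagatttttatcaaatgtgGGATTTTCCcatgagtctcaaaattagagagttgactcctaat
Lif: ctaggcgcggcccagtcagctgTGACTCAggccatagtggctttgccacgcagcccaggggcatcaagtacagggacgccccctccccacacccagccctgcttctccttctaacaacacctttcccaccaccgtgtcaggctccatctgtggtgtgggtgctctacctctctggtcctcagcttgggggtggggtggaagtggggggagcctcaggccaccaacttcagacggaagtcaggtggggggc
The motifs searched were TGANTCA for AP-1, GGAAAA for the NFAT core, TTCNNNGAA for STAT and GGNNTTTCC for NF-kB, on both strands, and TATAAA on the coding strand. Of 32851 promoter windows, 6.7% held the AP-1 motif, 20.4% the NFAT core, 7.0% the STAT motif, 4.9% the NF-kB motif and 7.6% TATAAA. Il2 had GGAAAA 137 to 132 and TTTTCC 48 to 43 bases before the start, and TATAAA at 31 to 26. Il6 had TGAGTCA at 249 to 243 and GGATTTTCC at 43 to 35, which overlaps a TTTTCC at 40 to 35. Lif had TGACTCA at 228 to 222. A match is a description of letters, not a binding site.

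The genes most like each cytokine were found by Pearson r of log2(FPKM + 1) over the 6 libraries among 11540 genes. With 6 points that share library depth and the divergence of DSS replicates 1 and 3, high values are common and are given as a description. For Il2 they were Capg (0.9969), Nhp2 (0.9929) and Zfp330 (0.9928), and 210 genes exceeded 0.9. For Lif they included Setd3 (0.9984) and Snx18 (0.9968), among 1006 genes over 0.9. For Osm they were Rps6ka1 (0.9988), Sf3a2 (0.9981) and Raver1 (0.9977), among 932. Lif and Osm had an r of 0.9605 with each other, which was only the 331st highest for Lif. For Il6 they were Nsmce1 (0.9918), Ccdc28b (0.9857) and Lrpap1 (0.9794), among 78, and for Il10 Zfp260 (0.9841), Abcc8 (0.974) and Rnf34 (0.9658), among 48.

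The libraries held between 9962415 and 23119390 fragments. The 12 ILC2 markers were present in each, with a summed level of 3453 to 3741 FPKM in control and 2583 to 2803 in DSS. Markers of other cells that can make these cytokines were also found. The 8 T cell markers in the table, T cells being a known source of IL-2, summed to 23.3 to 33.5 in control and to 62.7, 21.8 and 33.4 in DSS, with 3 at 0 in some library. In DSS replicate 1, where Il2 was also highest, Cd3g was at 37.6, Cd3d at 13.6 and Cd8b1 at 5.85 FPKM. Cd3e was the lowest of the 6 libraries there, at 1.62, and Cd4 was within the control range at 1.22. Cd8b1 was as high in DSS replicate 3 (5.81), where Il2 was lowest. In control replicate 1, where Il2 was at 90.0, Cd3g was at 26.0, Cd3d at 1.19 and Cd8b1 at 1.15. The 10 neutrophil markers summed to 3.11 to 8.03 in control and 67.3 to 109 in DSS, with 7 at 0 in some library. The 11 macrophage and monocyte markers summed to 13.96 to 18.3 and 20.3 to 47.2, with 5 at 0 in some library. The 7 B and plasma cell markers summed to 26.6 to 39.2 and 50.0 to 291. In DSS most of that sum was Jchain (113 ± 74.0) and Mzb1 (55.3 ± 47.2). The 8 dendritic cell markers summed to 172 to 192 and 49.5 to 81.8. Most of the dendritic cell sum was Ccr7, at 167 ± 13.7 in control and 58.7 ± 14.5 in DSS. Of the 4 markers of that list that were tested, 3 had every DSS library below every control. These were Ccr7, Zbtb46 (log2 change −1.29 ± 0.33 SE) and Xcr1 (−1.38 ± 0.32 SE). The other markers of that list had higher means in DSS. Among them was Flt3 at 0.262 ± 0.337 and 1.41 ± 0.668, under the minimum for the test, with every DSS library above every control. The 8 epithelial markers summed to 12.2 to 20.3 and 26.2 to 33.4. The 5 markers of group 3 innate lymphoid cells summed to 171.2, 225.6 and 284.4 in control and to 309.6, 164.8 and 70.6 in DSS. Most of that sum was Il22. It followed the library order of Il2 in DSS and the reverse order in control. The 6 markers of group 1 innate lymphoid and NK cells summed to 31.8 to 65.7 and 48.1 to 59.8. The 8 stromal and endothelial markers summed to 19.1 to 33.7 and 10.3 to 28.5. The part of these cells in the cytokine values was not tested.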

How the data were processed

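RNA from sorted colonic ILC2s was made into full-length cDNA and paired-end libraries, per the labels' protocols; strand was not marked. Per the submitters' processing notes, Cutadapt 1.9, HISAT2 2.2.1 and mm10 were used. Which program counted fragments, and with which annotation, is not given in the sources. The authors deposited FPKM values for 23268 genes. Samples were grouped by their titles.

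FPKM values were whole multiples of a step per gene, which gave whole fragments for 22701 of 22701 genes above 0 (100.0%, relative tolerance 1e-10). These give the depths and an alternative test. The intervals of log2 changes rest on the spread between libraries, and the coefficients of variation from fragments cover counting error only.

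The test was limma 3.58.1 (R 4.3.3), two-sided, using lmFit and eBayes with trend. It ran over log2(FPKM + 1) of 12187 genes (mean FPKM at least 1), with Benjamini-Hochberg adjustment over all of them and a threshold of 0.05. Exact permutation tests enumerated all 20 assignments of libraries to groups. The members, gene lists and tests were chosen with earlier results of these data known. Named genes were the 5 cytokines, their receptors, list genes that passed or else up to 4 with the smallest p, the 3 most alike genes of each cytokine and neighbours within 100 kb; only some of the list genes are printed, chosen after their values were seen. Some genes that this rule names are not reported here. Coordinates are from GENCODE M21 (GRCm38, the same as mm10), 1-based. The NF-kB motif was shortened by 1 letter after its match in Il6 was seen, which raised the share of promoters that hold it.

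On fragments simulated for 11820 genes of this comparison, limma recovered 2.9% of 103 genes changed 2-fold and 35.2% of 88 changed 4-fold. It also called 4 unchanged genes. The simulated spread took in counting error, which the draw of fragments then added again. No library was made to diverge as a whole, so these shares are only a rough guide to the real comparison. Deviations from the group means correlated between control and DSS libraries of the same replicate number (0.189, 0.262 and 0.545), so the numbers were taken to pair them. The labels do not state this pairing, and the correlation of control 1 with DSS 2 was higher (0.345). Alternatives were other pseudocounts, filters and scalings, no trend, voom, library weights, the replicate block and leaving out libraries. Figures were drawn with matplotlib.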

Additional observations from a re-analysis of the deposited data

How the results depend on the processing

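Il2, Lif and Osm kept a negative log2 change under every setting run, from −1.10 to −0.29, −0.76 to −0.22 and −0.65 to −0.04. Il2 passed with library weights (−0.79, limma adjusted p = 4.20e-04, when 15% of all genes were called lower), with gene-by-gene weights (−0.81, limma adjusted p = 0.0255, 3.15% called lower) and without DSS replicate 1. Lif passed with library weights alone (−0.33, limma adjusted p = 0.0268). The number of the 5 cytokines called was thus 2, 1 and 1 in those settings, and 0 to 1 when 1 library was left out. The weight estimate stopped before it converged, and the gene-by-gene form was added after seeing that. Leaving out 1 library gave −1.10 to −0.29 for Il2, −0.72 to −0.22 for Lif, −0.65 to −0.09 for Osm, −0.32 to 0.58 for Il6 and −0.32 to 0.42 for Il10. Il10 was also negative with quantile normalization (−0.070), voom (−0.022), library weights (−0.32) and gene-by-gene weights (−0.12), and had no value at a minimum mean FPKM of 5. Adjusted p-values under all settings ran from 0.542 to 1.00 for Il6 and from 0.441 to 1.00 for Il10.

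Of the 65 pathway genes, 2 were called with a pseudocount of 5 (against 0.222% of all genes tested). The count was 0 without trend (against 0.0328%) and 2 with the replicate block (against 0.181%). With library weights 28 were called (43.1%, against 27% of all genes), and with gene-by-gene weights 13 (20%, against 5.21%). Without both replicates 3 it was 0 (against 0.0412%). Leaving out 1 library gave 0 to 15, with 15 reached without DSS replicate 1 (23.1%, against 3.39%). The replicate block changed no cytokine's call (limma adjusted p 0.362 for Il2). The sign turned for several genes whose log2 change was smaller in size than its SE, such as Il22 (−0.49 ± 0.52 SE) and Il27 (0.43 ± 0.75 SE). Clcf1 was at −0.020 with median-of-ratios scaling, −0.087 with quantile normalization, −0.062 with voom and −0.24 without both replicates 3. Il11ra1 was at −0.28 with quantile normalization and Il27 at −0.16 with library weights. Il6st was at −0.10 with library weights and −0.10 without both replicates 3. Without both replicates 3, Il22 was at 0.34, Il4 at 0.044 and Rnf215 at −0.17. Hadha was at 0.055 and 0.0086 with library and gene-by-gene weights. Leaving out 1 library gave −0.15 to 0.20 for Clcf1, −0.25 to 0.34 for Il11ra1, −0.20 to 0.93 for Il27, −0.14 to 0.30 for Il6st, −1.05 to 0.15 for Il22, −0.66 to 0.0001 for Il4, −0.33 to 0.013 for Il10rb, −0.21 to 0.056 for Hadha, −0.21 to 0.31 for Rnf215 and −0.46 to 0.086 for Tyms. Causes were not tested. The median over all genes was 0.12 without a filter, 0.12 without DSS replicate 1 and −0.11 without DSS replicate 3.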

Other observations

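Protein-coding genes within 100 kb of the cytokine genes were read beside them. Castor1, an arginine sensor of the mTORC1 pathway on the same strand, 35.1 kb from Lif and upstream of Osm, was at 47.5, 45.9 and 49.0 FPKM in control and 26.1, 31.6 and 30.8 in DSS, without overlap (limma adjusted p = 0.231). It passed without DSS replicate 1 (limma adjusted p = 0.0322), when 2.31% of all genes were called lower. Leaving out any other 1 library gave a limma adjusted p of 0.191 to 0.849 for Castor1. Mapkapk2, a kinase that stabilises cytokine messages, lies 28.7 kb from Il10 and was at 81.5, 94.3 and 96.9 in control and 29.1, 79.7 and 82.7 in DSS (limma adjusted p = 0.678). Tbc1d10a and Sf3a1, in the same neighbourhood as Lif and Osm, also had their lowest value in DSS replicate 1, at 11.2 and 7.35 FPKM. That library was the highest or the lowest in 56% of all genes, and Hormad2 (5.66 FPKM) and Ccdc157 (1.49 FPKM) of the same neighbourhood were not at an extreme in it. Il21, the neighbour of Il2 and itself a common gamma chain cytokine gene, stayed at 0 to 0.451 FPKM.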
